A study of Mus musculus with 16 samples.

Results

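Utf1, Fbxo15, Spp1, Dppa2, Dppa4, Dppa5a, L1td1, Tdh and Trim71 are 9 genes used as markers of mouse embryonic stem (ES) cells or known as targets of the transcription factors OCT4 and SOX2. The regions described here are the OCT4 peaks whose midpoint lay within 50 kb of any annotated transcript start of 1 of these genes. There were 33 such peaks among the 26704 peaks of a merged OCT4 list. ChIP-seq, which sequences the DNA precipitated with an antibody against a protein, had been performed on 16 libraries in 8 groups of 2 replicates, and 4 of these libraries were precipitated with an anti-OCT4 antibody.

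The OCT4 libraries came from 2TS22C cells, an ES cell line in which a Tet-Off promoter drives Sox2, so that doxycycline (dox) shuts SOX2 off. The SOX2 ON group was left untreated and the SOX2 OFF group received 1 µg/ml dox, both for 26 h, with 2 replicates each, and both were grown in serum with LIF and the kinase inhibitors CHIR99021 and PD184352. The list gives a chromosome, a start and an end for each merged peak and no height, so SOX2 ON and SOX2 OFF could not be compared, the depth of the libraries is unknown, and no value below has a replicate error. All comparisons are therefore descriptions of 1 list without a test.

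OCT4 is a POU domain protein that binds an octamer, and SOX2 is an HMG box protein that binds a short core. On many ES cell enhancers the proteins sit side by side on a composite element, in which a SOX part precedes the octamer. OCT4 can also bind DNA as a pair of molecules, for example on the palindromic octamer recognition element (PORE), which was described in the first intron of Spp1. Utf1 and Fbxo15 are classical examples of genes with an enhancer that holds adjacent SOX and OCT sites, and the Utf1 enhancer lies 3′ of the gene.

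All 9 genes had at least 1 OCT4 peak within 50 kb, where 72.1% of the 21938 protein-coding genes had 1. The genes had 1 to 7 peaks, with a median of 4 and a mean of 4.00, against a median of 1 and a mean of 1.88 over all protein-coding genes counted in the same way. Utf1 had 1 peak. Spp1, Dppa4 and L1td1 had 3 each, Fbxo15 and Dppa2 had 4, Trim71 had 5, Tdh had 6 and Dppa5a had 7. A count as high as that of Dppa5a was reached by 2.58% of protein-coding genes and one as high as that of Tdh by 4.75%, while 72.1% had at least as many as Utf1. The 9 genes had been chosen as known targets, so their high counts are no independent evidence.

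**Figure D1:**
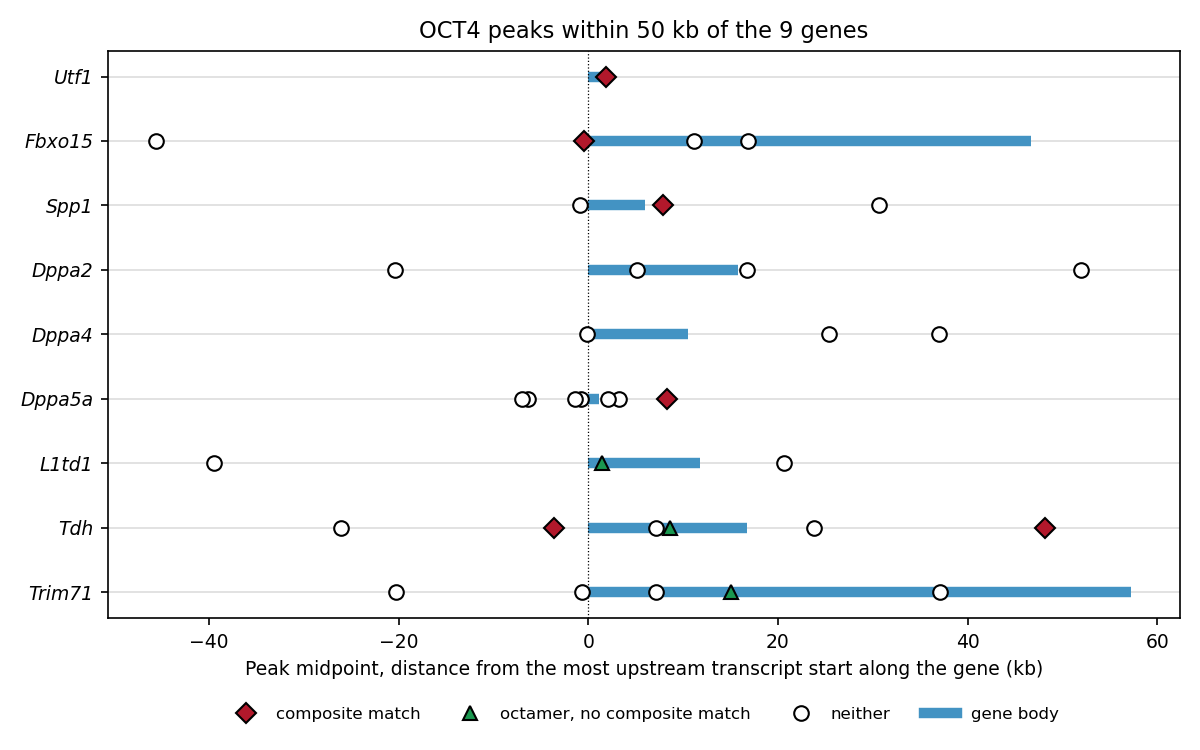
Each row is 1 gene, and each symbol is the midpoint of 1 OCT4 peak by its distance in kb from the most upstream transcript start, counted along the gene (negative is upstream). The blue bar is the gene body, and diamonds are the 6 peaks with a composite match. Triangles are peaks with an octamer but no composite match, and circles have neither. In the rows of both Dppa2 and Dppa4, 3 peaks appear, and the 7 peaks of Dppa5a all sit within 10 kb.

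**Figure D2:**
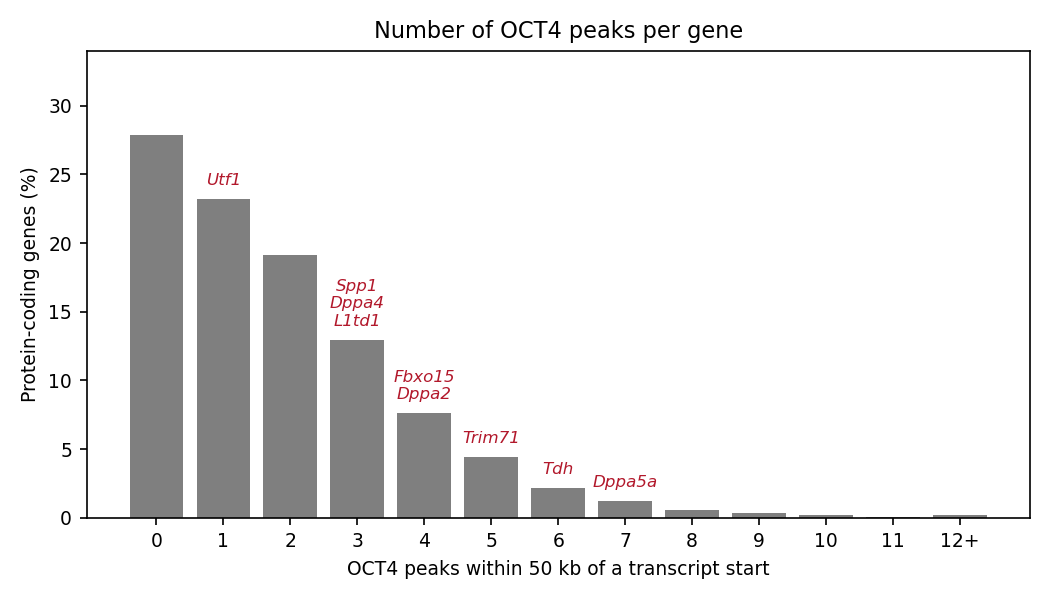
The bars give the percentage of the 21938 protein-coding genes by the number of OCT4 peaks within 50 kb of a transcript start, with 12 and more joined in the last bar. The names stand above the bar of their own count, from 1 peak for Utf1 to 7 for Dppa5a.

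The composite element was searched as the SOX part CATTGT, a T and the octamer ATGCAAAT on both strands, with at most 3 mismatches over its 15 bases. A match was found in 6 of the 33 peaks (18.2%, 95% Wilson interval 8.61% to 34.4%), and the share over all peaks was 11.5%, which lies inside that interval. Within the central 200 bp alone, a match was found in 3 of the 33 peaks (9.09%) and in 8.59% of all peaks. The 6 peaks belonged to 5 genes, Utf1, Fbxo15, Spp1, Dppa5a and Tdh, and Tdh had 2 of them. The peaks of Dppa2, Dppa4, L1td1 and Trim71 held none. The matches at Utf1, Dppa5a, Spp1 and Tdh are printed below as the matches that this search returned for these genes. Whether they are bound sites was not tested. They are given on the plus strand of GRCm38 (mm10), 5′ to 3′, with the 15 matched bases in capitals. The matches at Utf1, at Dppa5a and at the distal Tdh peak read from the minus strand.
Utf1, chr7:139945589-139945788: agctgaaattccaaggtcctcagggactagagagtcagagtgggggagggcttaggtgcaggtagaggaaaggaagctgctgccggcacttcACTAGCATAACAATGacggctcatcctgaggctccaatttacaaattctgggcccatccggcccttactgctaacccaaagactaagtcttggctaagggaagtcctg
Dppa5a, chr9:78359729-78359789: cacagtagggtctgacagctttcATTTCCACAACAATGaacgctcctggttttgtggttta
Spp1, chr5:104442556-104442616: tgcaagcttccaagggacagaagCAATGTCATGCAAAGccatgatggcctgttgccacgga
Tdh, proximal, chr14:63512640-63512700: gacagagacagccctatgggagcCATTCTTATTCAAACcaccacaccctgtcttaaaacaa
Tdh, distal, chr14:63460815-63460875: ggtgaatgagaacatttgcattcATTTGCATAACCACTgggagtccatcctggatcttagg

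The differences from the searched motif are named by the motif's base, its position from 1 at the 5′ end of the SOX part, and the base found. Positions 1 to 6 are the SOX part and 8 to 15 the octamer. The Utf1 match had A12T and A14G, so its SOX part was complete and both changes fell in the octamer. The match beside Dppa5a had A8G and C11G, again with a complete SOX part. The Spp1 match had T3A, T7C and T15G. The proximal Tdh match had G5C, G10T and T15C. The distal Tdh match had C1A, A2G and T4G, so its octamer was complete and the SOX part was not. None of the 7 matches, of which Fbxo15 had 2, was complete in both parts.

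The 15 bases of the Utf1 match occurred 4 times in the genome and in 1 peak, which was the Utf1 peak itself. Those of the Dppa5a match occurred 15 times and those of the distal Tdh match 10 times, each with 1 copy in a peak, again the source peak. Those of the Spp1 match occurred 7 times with 2 copies in peaks. Each printed match was taken from a peak, so at least 1 copy in a peak was fixed in advance. The proximal Tdh match stood apart. Its 15 bases occurred 1246 times in the genome, of which 1243 (99.8%) were masked as repeats in the reference, and 101 of the copies (8.11%) lay in OCT4 peaks. The fully complete composite, by comparison, occurred 21 times in the genome, and 6 copies (28.6%) lay in peaks, none of them near the 9 genes. The share of the genome covered by peaks was not computed, so nothing is read from these shares.

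Within the joined 50 kb windows of the 9 genes, which spanned 877 kb, the composite was matched 46 times, and 7 of these matches (15.2%) lay in peaks. The 33 peaks covered 1.54% of the windows. The density of matches was 0.519 per kb in the peaks and 0.0452 per kb outside them. These densities cover the 9 loci alone, and no density over all peaks stands beside them. With at most 2 mismatches 3 matches were left, and the 2 in peaks were those of Utf1 and Dppa5a. In windows of the same width placed 5 kb to each side of a peak and free of peaks, the composite was matched in 1 of 62 windows (1.61%) for the peaks of the 9 genes and in 1.86% for all peaks.

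Utf1 encodes a chromatin-associated protein of undifferentiated ES cells. The gene lies at chr7:139943789-139945112 on the plus strand and is 1324 bp long. Its only peak, chr7:139945463-139945947, was 485 bp wide and lay 1.92 kb downstream of the transcript start. The peak began 351 bp past the annotated end of the gene, in intergenic sequence, with no other protein-coding transcript start nearer. The composite match sat 17 bp from the midpoint of the peak. No base of the peak was masked as a repeat, and none of its 31-base words occurred elsewhere in the genome. Utf1 had the fewest peaks of the 9 genes, and widening the window to 100 kb added none.

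Fbxo15 encodes an F-box protein, a substrate adaptor of ubiquitin ligases. The gene lies on chromosome 18, whose sequence is not reported here. The peak nearest to its annotated starts lay 0.482 kb upstream and was 1303 bp wide, wider than 99.8% of all peaks. It held 2 composite matches with 3 mismatches each, 190 and 438 bp from its midpoint and 0.292 and 0.92 kb upstream of the transcript start, and 1 SOX core. Of its other 3 peaks, 2 lay in an intron of Fbxo15 but nearer to a start of Timm21, which encodes a subunit of the mitochondrial import machinery, at 0.056 and 2.14 kb. The remaining peak lay 45.5 kb upstream and nearer to Cyb5a, which encodes cytochrome b5. It was masked over 100% of its length, and 32.1% of its 31-base words were multi-copy, the highest share among the 33 peaks. Thus 1 of the 4 peaks counted for Fbxo15 had Fbxo15 as its nearest protein-coding gene.

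Spp1 encodes osteopontin, a secreted phosphoprotein of bone that was among the earliest OCT4 and SOX2 target genes described. The gene lies at chr5:104435118-104441050 on the plus strand. Its nearest peak, chr5:104434009-104434389, was 381 bp wide and lay 0.919 kb upstream of the most upstream start. That peak held the SOX core CCATTGT and no octamer, and its closest composite match had 4 mismatches. The composite match was in another peak, chr5:104442549-104443431, which was 883 bp wide and began 1499 bp past the end of the gene. The match lay 404 bp from the midpoint, close to the left edge, and 68.1% of this peak was masked, although the 15 matched bases were not. The third peak was in an intron of Pkd2, which encodes the cation channel polycystin-2, 6.25 kb from a start of that gene. Each of the 3 peaks held 1 SOX core.

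The PORE of the first Spp1 intron was not in a peak. It was searched because of its known link with this gene, and the locus search for it was chosen after the peak values were seen. The element, printed because it is the POU dimer site of this gene, was complete at chr5:104435975-104435989 on the plus strand, in the first intron of 6 of the 7 annotated Spp1 transcripts and in an exon of the annotated gene Gm42793:
Spp1, PORE: ATTTGAAATGCAAAT
It lay 864 bp downstream of the most upstream transcript start. The nearest peak edge, that of the upstream peak, was 1586 bp away. All 15 bases were masked as a repeat. The complete element occurred 1699 times in the genome, of which 1695 were masked, and 7 copies (0.412%) lay in an OCT4 peak of this list. No share of the genome in peaks stands beside this value, so nothing is read from it. Because the depth is unknown, a site without a peak cannot be told from one below the calling threshold.

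Dppa2 and Dppa4 encode DNA-binding proteins with a SAP domain that act as a pair in early embryos and ES cells. They are neighbours on the plus strand of chromosome 16, at chr16:48303908-48319723 and chr16:48283733-48294237, with 20.1 kb between their nearest starts. Because of this, 3 peaks were counted for both genes and only 4 different peaks lay in the pair of windows. The peak at the Dppa4 start, chr16:48283331-48283781, was 451 bp wide and its midpoint lay 0.177 kb upstream, the shortest distance among the 9 genes. The nearest peak of Dppa2, chr16:48308944-48309211, was 268 bp wide. It lay in an intron, 1.40 kb upstream of the downstream start of Dppa2 and 5.17 kb inside the gene from the upstream one. A further peak began 760 bp past the end of Dppa2, and the last was 45.4 kb from a Dppa2 start. The Dppa4 and Dppa2 peaks within these windows held no octamer.

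The closest composite match in the Dppa4 promoter peak had 4 mismatches, C1A, T7G, A12T and T15A, and lay 71 bp upstream of the transcript start on the minus strand. A match with at most 4 mismatches was found in 35.9% of all peaks, so nothing is read from its presence. The Dppa4 match is printed, with the 15 bases in capitals, to show the promoter sequence under the peak. It was chosen after the values were seen.
Dppa4, chr16:48283632-48283692: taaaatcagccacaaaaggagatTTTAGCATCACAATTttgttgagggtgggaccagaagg
The last Dppa2 peak, chr16:48355755-48356005, was the only 1 of the 4 with a SOX core, and it held 2 copies of CCATTGT on the minus strand, 0 and 39 bp from its midpoint. The other 3 peaks held none. Between 25.9% and 69.8% of the bases were masked in the 3 peaks shared by both genes, and 0% in the last.

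Dppa5a encodes a KH domain RNA-binding protein of ES cells. The gene lies at chr9:78367052-78368177 on the minus strand and is 1126 bp long. Its 7 peaks all lay within 10 kb of the single transcript start and spanned 15.6 kb from the first to the last edge. At least 1 peak within 10 kb was found for 38.5% of protein-coding genes, whereas 20 of the 21938 genes (0.0912%) had 7 or more. The limit of 7 was the count of Dppa5a itself. The midpoints lay 0.739, 1.38, 6.33 and 6.95 kb upstream and 2.09, 3.21 and 8.28 kb downstream of the start, so that the peaks flanked the gene on both sides and none was inside it. Edge to edge, less than 1 kb separated the peaks at 0.739 and 1.38 kb upstream and those at 6.33 and 6.95 kb upstream. The same held for the peaks at 2.09 and 3.21 kb downstream. Joining peaks within 1 kb turned each of these pairs into 1 peak, which lowers the count of 7. The 0.0912% was obtained without joining, and no joined count over all protein-coding genes stands beside it. The widths of the unjoined peaks ran from 259 to 576 bp. The nearest peak was chr9:78368710-78369122, which was 413 bp wide and held no octamer and no SOX core.

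The Dppa5a peak with the composite match, chr9:78359613-78360188, was the widest of the 7 and the farthest from the start. It lay 4.11 kb from a start of Gsta2, a glutathione S-transferase gene, which was nearer than Dppa5a. The peaks at 6.33 and 6.95 kb upstream were nearer to Ooep, an oocyte-expressed gene of the same cluster, whose start lies 10.5 kb from that of Dppa5a. The other 4 had Dppa5a as their nearest protein-coding gene. Ooep itself had 7 peaks within 50 kb and Khdc3, another member of the cluster, had 5, and these counts share peaks with Dppa5a. In the nearest Dppa5a peak 15.9% of the 31-base words were multi-copy. The other 6 peaks had at most 0.873%.

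L1td1 encodes an RNA-binding protein derived from the open reading frame of a LINE-1 element. The gene lies at chr4:98726734-98738480 on the plus strand. Its nearest peak, chr4:98727849-98728532, lay in an intron 1.40 kb downstream of a transcript start and was 684 bp wide, wider than 93.3% of all peaks. It held 2 octamers on the minus strand, at the midpoint itself and 163 bp from it. A peak with 2 or more octamers was found in 2 of the 33 (6.06%, 95% Wilson interval 1.68% to 19.6%), this 1 and the distal Tdh peak, and in 0.962% of all peaks. This count rests on 2 peaks and was chosen after the values were seen, so nothing is read from it. The stretch that holds both octamers is printed on the plus strand, with the octamers in capitals.
L1td1, chr4:98728009-98728209: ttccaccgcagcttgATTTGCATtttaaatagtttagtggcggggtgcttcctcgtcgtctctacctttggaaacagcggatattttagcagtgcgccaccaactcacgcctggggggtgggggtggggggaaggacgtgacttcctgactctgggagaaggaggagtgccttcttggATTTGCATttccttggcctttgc
The left octamer was part of a PORE with 1 mismatch, G5A counted from the 5′ end of the element, and both octamers lay in masked sequence. A PORE with at most 2 mismatches was found in 2 of the 33 peaks (interval 1.68% to 19.6%) and in 1.48% of all peaks, and the other was the peak just past the end of Dppa2, with T4G and C11T. The share of all peaks lay just below that interval, which rests on 2 peaks, so nothing is read from it. The remaining L1td1 peaks lay 39.5 kb upstream, in an intron of Patj, and 14.2 kb downstream.

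Tdh encodes threonine dehydrogenase, the enzyme by which mouse ES cells break down threonine. The gene lies at chr14:63492347-63509092 on the minus strand and has 4 annotated starts. Its nearest peak, chr14:63500230-63500742, was 513 bp wide and lay in an intron, 0.227 kb upstream of an internal start and 8.61 kb from the most upstream one. This peak held an octamer and the SOX core CCTTTGT, 58.5 bp apart from centre to centre and on opposite strands, and was the only 1 of the 33 with both. Its octamer and that of the distal Tdh peak are printed with their surroundings, on the plus strand with the octamers in capitals.
Tdh, internal start, chr14:63500552-63500605: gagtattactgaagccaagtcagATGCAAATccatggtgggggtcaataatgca
Tdh, distal, chr14:63460805-63460868: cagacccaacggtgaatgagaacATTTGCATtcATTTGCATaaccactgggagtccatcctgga

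The distal Tdh peak, chr14:63460773-63461070, lay in an intron of Fam167a, 36.2 kb downstream of a Tdh start and 24.5 kb from a start of Fam167a. Its pair of octamers ran in the same direction with 2 bases between them, and the composite match used 1 of them. The proximal composite peak, chr14:63512509-63512865, lay 3.6 kb upstream of the most upstream start. Its match sat 17 bp from the midpoint, 64.7% of the peak was masked and 6.12% of its 31-base words were multi-copy. A further peak was in an intron of Mtmr9, 7.03 kb from a start of that myotubularin-related gene. The remaining peaks lay 1.73 kb upstream of an internal start and 11.9 kb downstream of one. Tdh was the nearest protein-coding gene for 4 of its 6 peaks.

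Trim71 encodes an RNA-binding protein of the TRIM family that is a target of the let-7 microRNAs. The gene lies at chr9:114507133-114564369 on the minus strand and is 57237 bp long, the longest of the 9. Its nearest peak, chr9:114564806-114565197, was 392 bp wide and lay 0.632 kb upstream of the single start. That peak held no octamer and no SOX core, and the same was true of 3 of the other 4. The exception was the intronic peak chr9:114549203-114549439, 15.05 kb downstream of the start, with an octamer 28.5 bp from its midpoint. It is printed for comparison with the octamers above and was chosen after the values were seen.
Trim71, chr9:114549323-114549376: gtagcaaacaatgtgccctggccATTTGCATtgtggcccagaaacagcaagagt
In all, 3 of the 5 peaks were in introns of Trim71, at 7.11, 15.05 and 37.0 kb from its start. The last of these was nearer to C130032M10Rik, 11.6 kb away. The other upstream peak lay 20.3 kb from the start. The peaks of Trim71 reached the highest GC content of the 33, 58.3%, and none held a SOX core or a composite match.

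The nearest peak of each of the 9 genes lay within 2 kb of a transcript start, where 20.7% of protein-coding genes had a peak. This limit was chosen after the values were seen. The distances were 0.177 kb for Dppa4, 0.227 kb for Tdh, 0.482 kb for Fbxo15, 0.632 kb for Trim71, 0.739 kb for Dppa5a, 0.919 kb for Spp1, 1.40 kb for both L1td1 and Dppa2 and 1.92 kb for Utf1. The median was 0.739 kb, against 18.5 kb over all protein-coding genes. For Tdh, Dppa2 and L1td1 these starts were not the most upstream ones, and the distances to the most upstream start were 8.61, 5.17 and 1.46 kb for the same peaks.

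**Figure D3:**
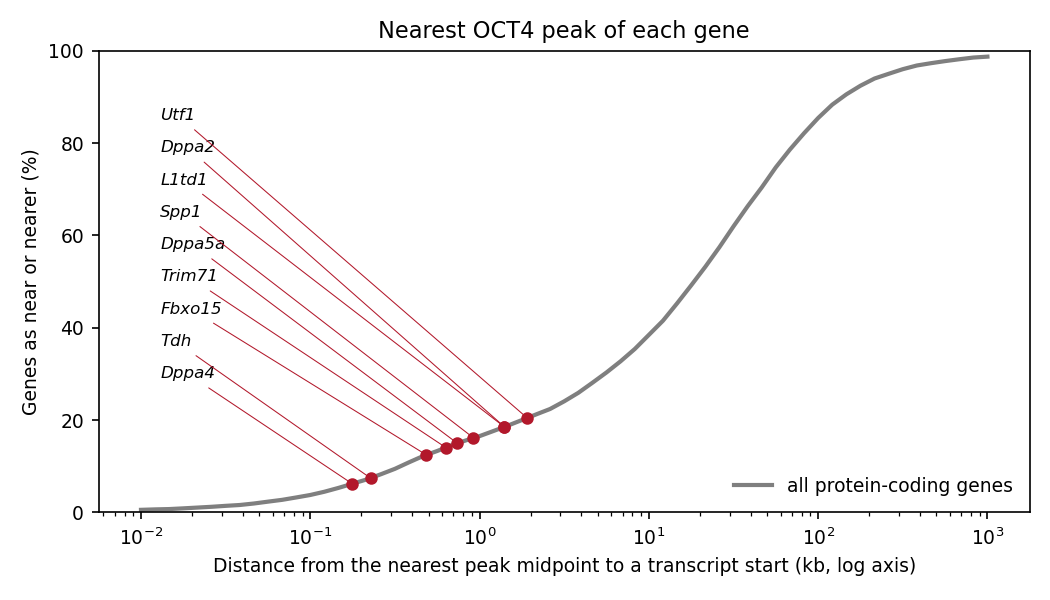
The grey line gives the percentage of protein-coding genes (y axis) whose nearest OCT4 peak midpoint is at or within a distance of a transcript start (x axis, kb, log scale). The red points are the 9 genes on that line, from 0.177 kb for Dppa4 to 1.92 kb for Utf1.

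Of the 33 peaks, 23 had 1 of the 9 genes as the gene with the nearest protein-coding transcript start, and 10 had another gene. By midpoint, 13 peaks (39.4%) were in introns and 20 (60.6%) in intergenic sequence, and 0 were in an exon. Over all peaks 45.5% were in introns and 46.1% were intergenic. The others were exonic, with 2.21% in 5′ and 1.39% in 3′ untranslated regions, 1.53% in coding exons and 3.26% in other exons. No interval was computed for these classes, so nothing is read from them. A midpoint within 1 kb of a protein-coding transcript start was found for 7 peaks (21.2%, 95% Wilson interval 10.7% to 37.8%) and for 13.8% of all peaks. Membership required a start within 50 kb, which bears on this share, so nothing is read from it. The 7 were the nearest peaks of Dppa4, Tdh, Fbxo15, Trim71, Dppa5a and Spp1 and the peak beside Timm21.

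An octamer, read as ATGCAAAT on either strand, was found in 4 of the 33 peaks (12.1%, interval 4.82% to 27.3%) and in 10.96% of all peaks. These were the peaks of L1td1, Trim71 and Tdh described above. A SOX core, CCATTGT or CCTTTGT on either strand, was found in 11 peaks (33.3%, interval 19.8% to 50.4%) and in 30.3% of all peaks. None of the 3 motifs was found in 17 of the 33 peaks (51.5%), and this held for 56.3% of all peaks. The cores of other factors were counted in the central 200 bp, the ESRRB core AAGGTCA in 2 peaks (6.06%, all peaks 8.46%), the KLF core GGGTGTG in 3 (9.09%, all peaks 7.83%) and the TEAD core GGAATG in 5 (15.2%, all peaks 16.1%). The TFAP2 element GCCNNNGGC and the E-box CACGTG were in 1 peak each (3.03%, all peaks 6.92% and 2.96%), and the STAT element TTCCNGGAA was in 0 of 33 (interval up to 10.4%, all peaks 0.91%). The share of all peaks lay inside the interval of the 33 peaks for each motif of this paragraph. A further POU dimer element, MORE (more palindromic octamer recognition element), was in 0 of the 33 whole peaks with at most 1 mismatch, and in 0.599% of all peaks.

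**Figure D4:**
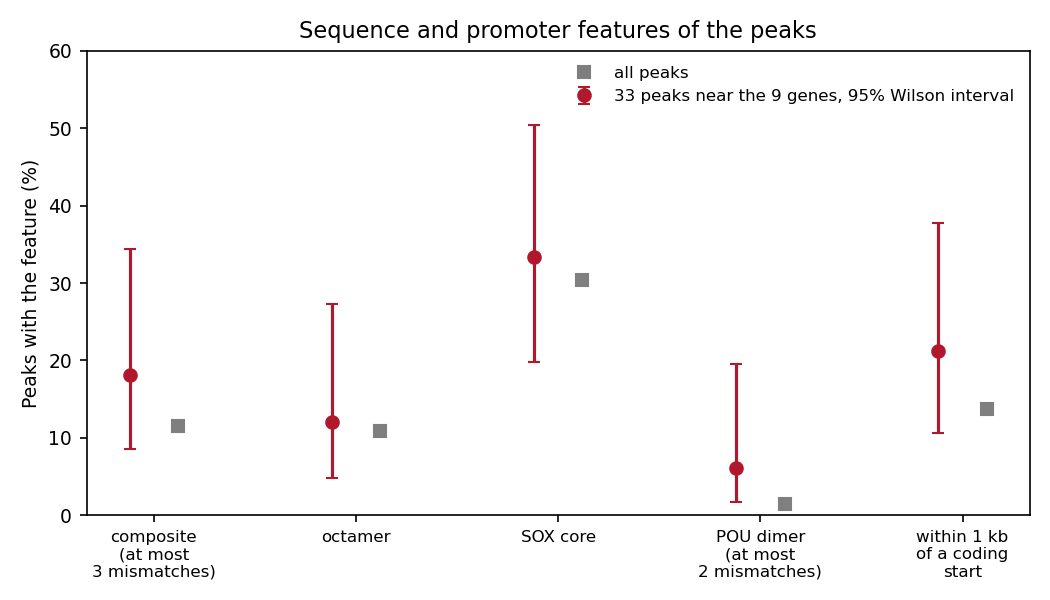
Red points are the percentage of the 33 peaks near the 9 genes with each feature, with 95% Wilson intervals that cover counting error only, and grey squares are the percentage of all 26704 peaks. The composite was found in 18.2% against 11.5%, and for the composite, octamer, SOX core and promoter features the grey square lies inside the interval. For the POU dimer element (PORE, at most 2 mismatches), found in 2 of the 33 peaks, the square at 1.48% lies just below the interval of 1.68% to 19.6%.

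The width of the 33 peaks had a median of 357 bp (range 205 to 1303 bp), and that of all peaks was 352 bp. Their median GC content was 47.1%, against 46.4%, and the median masked share was 13.7%, against 13.0%. Over 50% of the bases were masked in 6 of the 33 peaks (18.2%) and in 15.6% of all peaks. No peak near the 9 genes had more than 50% multi-copy 31-base words, and 19 had none. These words were counted for the 33 peaks alone, so no share over all peaks stands beside them.

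Other genes were counted with the same 50 kb windows. Of all protein-coding genes, 72.1% had a peak in such a window, and the median was 1. All 12 of the other ES cell markers had a peak, with a median of 4 and a range of 1 to 9. They included Nanog with 5 peaks, Zfp42 with 4 and Tcl1 with 1. Dppa3 and Gdf3, also on that list, lie in the locus of Nanog, so the windows of these genes can share peaks. Of 11 relatives and chromosomal neighbours of the 9 genes, 8 had a peak, with a median of 1. They include Ooep and Khdc3, whose counts share peaks with Dppa5a. Among these 11 genes are 4 of the bone and tooth matrix family of Spp1. Of that family, Ibsp and Mepe had 0 peaks and Dmp1 and Dspp had 1 each. Of the relatives of Trim71, Trim2 had 9 peaks, and Trim3 and Trim32 had 1 each. Of 10 genes of other cell types, among them Alb and Gfap with 0 peaks, 7 had a peak and the median was 2. Both this count and that of the relatives lay near the 72.1% of all protein-coding genes, so nothing is read from them. The median distance of the nearest peak was 0.912 kb for the other ES cell markers, 16.7 kb for the relatives and 15.4 kb for the genes of other cell types. Over all protein-coding genes it was 18.5 kb.

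**Figure D5:**
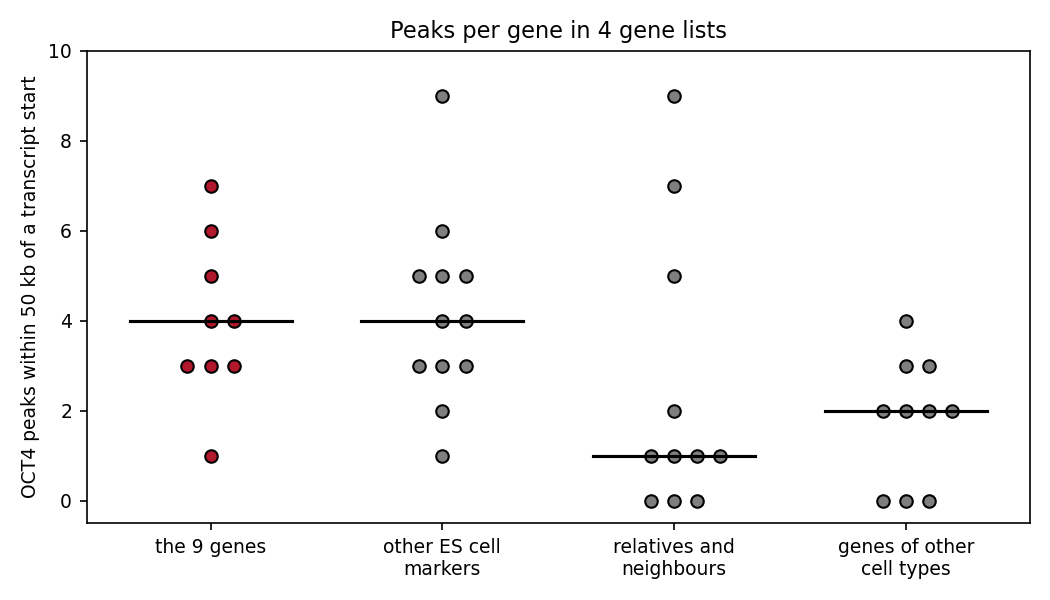
Each point is 1 gene by the number of OCT4 peaks within 50 kb of a transcript start (y axis), and the black line is the median of the list. The 9 genes and the other ES cell markers both have a median of 4, the relatives and neighbours 1 and the genes of other cell types 2. All protein-coding genes, which are not drawn, have a median of 1.

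The 50 kb limit was not close to any peak. The farthest peaks inside it lay 45.5 kb from Fbxo15 and 45.4 kb from Dppa2, and the nearest outside it lay 52.9 kb from Spp1 and 53.3 kb from L1td1. The L1td1 peak just outside held a composite match with 3 mismatches.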

How the data were processed

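ChIP-seq for OCT4 had been made in 2TS22C cells. The authors aligned reads to mm10 (GRCm38) with STAR 2.6.1c, removed duplicates with Picard, called peaks on read pairs with MACS2 2.1.1.20160309, and combined the calls with BEDTools. The deposited list gives chromosome, start and end in base pairs. Which of the 4 OCT4 libraries were merged, and whether replicates were pooled, was not given in the sources used here. Merging joins overlapping peaks, so a width is that of the union. Depth is unknown, and the Wilson intervals (95%) cover counting error only.

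The 9 genes and all gene lists were chosen with earlier results of these data known. Peaks were assigned by midpoint to GENCODE M21 transcript starts within 50 kb. Promoter peaks lay within 1 kb of a protein-coding start. A midpoint in any annotated exon was counted as exonic before intronic. Sequence was read from RefSeq GRCm38.p6 with pysam 0.24.0 and searched on both strands by scripts tested on simulated data. A 31-base word was multi-copy if it occurred more than once on chromosomes 1 to 19, X and Y. Coordinates are 1-based. All 9 genes were named, with the nearest peak and every composite peak of each, and neighbours where they were nearer to a peak. Other windows, motif rules and peak filters were tried as alternatives. H3K27ac and BRG1 libraries were not analysed here.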

Additional observations from a re-analysis of the deposited data

How the results depend on the processing

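No paired analysis was possible because no value per library was at hand, only merged coordinates. Of 31 alternatives for the values over all 9 genes, 24 stayed near the main value. Near means within 1.5 times for a count or a median and inside the Wilson interval for a share. Some of the 24 could not move, among them the wider windows for the number of genes with a peak and the exclusion of mostly multi-copy peaks. The number of genes with a peak was 9 at 2 kb, so it could not differ at 10, 25 and 100 kb. Of all protein-coding genes 20.7% had a peak within 2 kb, 38.5% within 10 kb and 85.4% within 100 kb. With peaks of at least 300 bp the number was also 9. The number of peaks ran from 22 (peaks of at least 300 bp) to 40 (100 kb). Dropping peaks under 300 bp lowered the median per gene to 2, and no median over all protein-coding genes with that filter stands beside it. The share with a composite match was 6.06% with at most 2 mismatches (all peaks 2.21%) and 45.5% with at most 4 (all peaks 35.9%). In the central 200 bp it was 9.09%, near the 8.59% of all peaks, and with the middle base free it was 33.3% (all peaks 22.2%), both inside the wide interval of the main value. The octamer with 1 mismatch was in 45.5% (all peaks 53.5%) and a 6-base SOX core in 69.7% (all peaks 61.7%). Promoter peaks numbered 4 within 500 bp and 14 within 2.5 kb. No share over all peaks stands beside these counts, so nothing is read from them. Counts of single genes moved by over 1.5 times in 5 of 27 alternatives, among them Dppa4 with 1 peak at 25 kb. The 2 kb window, the exclusion of mostly multi-copy peaks, which removed 0, and the composite share in peaks nearest to 1 of the 9 genes (17.4%) were added after seeing the data.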
